A study of Mus musculus with 8 samples.

Results

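Matrix proteins were followed at the mRNA level in macrophages from the infarcted mouse heart, through 10 genes chosen by name: Tgfbi, Fn1, Thbs1, Spp1, Vcan, F13a1, Ecm1, Sparc, Col1a2 and Col3a1. All 10 were found among the 53342 genes of each count table, and 9 passed the filter on low counts and were tested. Sparc did not pass it. The macrophages came from wild-type C57BL/6 mice, 8 weeks old, 3 days after myocardial infarction, and were sorted by a high (Ly6Chi) or low (Ly6Clo) level of the surface antigen Ly6C. Each subset was cultured for 24 hours in serum-containing medium, with interleukin 21 (IL-21, a cytokine made mainly by T cells) at 100 ng/mL or without it, which gives 4 groups of 2 libraries. All 4 groups thus share the infarct, the sort and the day in culture, and no freshly sorted cells or cells of an uninjured heart are among the libraries. Mice lacking the IL-21 receptor, which the study's design also names, were not analysed here. The labels do not say whether the 2 libraries of a group come from separate mice, cultures or pools, so p-values measure only the spread between these libraries, which may be technical.

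After an infarct, dead heart muscle is first replaced by a provisional matrix and then by a collagen scar. The provisional matrix is built from fibrin, fibronectin and matricellular proteins, which signal to cells more than they bear load. Macrophages are known to secrete several of these proteins and the crosslinking enzyme factor XIII-A, whereas the fibrillar collagens of the scar come mainly from fibroblasts. Beta-ig-h3, the product of Tgfbi, and several of the other proteins are classic targets of transforming growth factor beta (TGF-beta), the main fibrogenic cytokine of the healing heart.

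The bases just before the start of transcription are shown for 3 of the genes on which the results turn: Tgfbi, which rose with IL-21, Spp1, counted most deeply of the 10, and Col3a1, a scar collagen. The sequences are those of RefSeq for GRCm38.p6, whose promoter table matched 8 of the 10 genes (not Fn1 and Thbs1), and each is printed 5′ to 3′ on the gene's strand, ending before the first annotated exon.
Tgfbi, chr13:56609336-56609522, plus strand: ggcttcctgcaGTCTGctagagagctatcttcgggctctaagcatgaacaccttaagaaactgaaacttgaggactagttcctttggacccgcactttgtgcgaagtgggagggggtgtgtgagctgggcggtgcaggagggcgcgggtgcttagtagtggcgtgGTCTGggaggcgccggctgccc
Spp1, chr5:104434861-104435110, plus strand: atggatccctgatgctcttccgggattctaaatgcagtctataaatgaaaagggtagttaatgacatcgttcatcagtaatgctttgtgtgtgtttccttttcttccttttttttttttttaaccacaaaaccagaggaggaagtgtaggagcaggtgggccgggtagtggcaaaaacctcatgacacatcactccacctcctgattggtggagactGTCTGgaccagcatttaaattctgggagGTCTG
Col3a1, chr1:45311288-45311537, plus strand: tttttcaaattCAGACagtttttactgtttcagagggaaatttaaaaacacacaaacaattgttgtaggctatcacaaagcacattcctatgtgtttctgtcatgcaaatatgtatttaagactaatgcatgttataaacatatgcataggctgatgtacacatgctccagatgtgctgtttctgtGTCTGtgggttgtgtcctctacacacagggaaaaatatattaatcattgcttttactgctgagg
Capitals mark CAGAC or its reverse complement GTCTG, letters that SMAD proteins, the transducers of TGF-beta, are known to bind. Each of the 3 windows held 2 matches. Windows not shown differed, with 0 matches for Vcan, 1 and 0 in 2 windows of F13a1, and 2 for Ecm1. These letters are common: any match to CAGAC on either strand was found in 42.2% of 32851 promoter windows of 250 bases. The share was 34.2% of windows of 187 bases, the length of the Tgfbi window. The share of windows with 2 or more matches was not computed. TTCNNNGAA, the form bound by STAT proteins, which relay IL-21 signals, had 0 matches in the 3 windows and was found in 7.02% of windows of 250 bases and in 5.46% of windows of 187 bases. TGANTCA, the AP-1 form, also had 0 matches in the 3 windows, against 6.75% and 5.14% of windows of these lengths. The Ecm1 window, not shown, held 1. TATAAA was present once in the Spp1 and once in the Col3a1 window and is found in 12.4% of windows of 250 bases.

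Libraries were shallow, with 224329 to 483593 deposited counts each, so that 3 counts, the upper limit set by a count of 0, corresponded to 6.58 to 14.9 CPM (counts scaled to a common library size). All intervals and limits from counts cover counting error only. Reads came from the 3′ ends of transcripts and were not divided by gene length, so levels are compared between libraries and never between genes. The 12 macrophage markers summed to between 8401 and 12808 CPM in the 8 libraries, although one of them, Itgam, was at 0 in all. Another, Cx3cr1, was at 0 in all 4 Ly6Chi libraries and had 1 to 6 counts in Ly6Clo. Lyz2 alone made up 2487 to 6773 CPM of these sums. Ly6c2, which encodes the antigen of the sort, was lower in Ly6Clo averaged over both cultures (log2 fold change -3.19, SE 0.30, edgeR adjusted p = 0.000837). Of the other genes listed for the sort, Chil3 was also called lower (-2.16, SE 0.38, edgeR adjusted p = 0.0360), beside 0.19% of all tested genes called. Plac8 did not pass at -2.77 (SE 0.81, edgeR adjusted p = 0.496). Ccr2 did not separate the subsets, at -0.25 (SE 0.61, edgeR adjusted p = 0.964). Of 16 fibroblast markers, 4 (Dpt, Tcf21, Ddr2 and Meox1) were at 0 in every library, and the summed level of the list ranged from 12.5 to 76.3 CPM. The 10 cardiomyocyte markers summed to 0 to 140 CPM, with the highest values in Ly6Clo with IL-21, library 1, and Ly6Chi without IL-21, library 2.

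Among the 9 tested genes, Tgfbi alone passed the test for an effect of IL-21 averaged over both subsets, at an adjusted p under 0.05 by the quasi-likelihood test of edgeR (Benjamini-Hochberg values over 5256 genes). In the same comparison 0.171% of all tested genes were called. All 9 estimates were above 0, as were 48.9% of all tested genes, with a median log2 fold change of 0.58, beside a median of -0.01 over all tested genes. Those of Fn1, Thbs1, Col1a2 and Col3a1 were smaller than their standard errors (SE). Only Tgfbi had all 4 stimulated libraries above all 4 unstimulated ones, which held in this direction for 2.19% of all tested genes.

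Tgfbi (ENSMUSG00000035493, chromosome 13, 56609523 to 56639562, plus strand) encodes a secreted adhesion protein that binds collagen and integrins. In Ly6Chi cells it stood at 832 and 835 CPM without IL-21 and at 1491 and 1450 CPM with it. In Ly6Clo cells it stood at 465 and 601 CPM without and at 1119 and 1355 CPM with IL-21. The stimulated and unstimulated libraries did not overlap in either subset, nor across the subsets, and counts behind these values were 112 to 550 per library. The averaged rise was 2.02-fold (log2 fold change 1.01, SE 0.15, edgeR adjusted p = 0.0105). Within Ly6Clo the rise was 2.31-fold (log2 fold change 1.21, SE 0.22, edgeR adjusted p = 0.0491). Within Ly6Chi the log2 fold change was 0.82 (SE 0.22), which did not pass the edgeR test (adjusted p = 0.99997). With the replicate number as a term in the model, Tgfbi was called in Ly6Chi (edgeR adjusted p = 0.00715), beside 14 of all 5256 genes. The labels do not say what that number marks. The effects in the 2 subsets were not shown to differ, since the log2 difference, Ly6Clo minus Ly6Chi, was 0.39 (SE 0.31, edgeR adjusted p = 0.99998). The averaged call was lost when either unstimulated Ly6Chi library was left out (edgeR adjusted p = 0.0809 without library 1 and 0.0764 without library 2), at log2 fold changes of 1.02 in both cases. The Ly6Clo call, close to the threshold, was lost on leaving out any 1 of the 8 libraries (adjusted p of 0.0664 to 0.683 by edgeR), with log2 fold changes between 1.05 and 1.43.

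**Figure D1:**
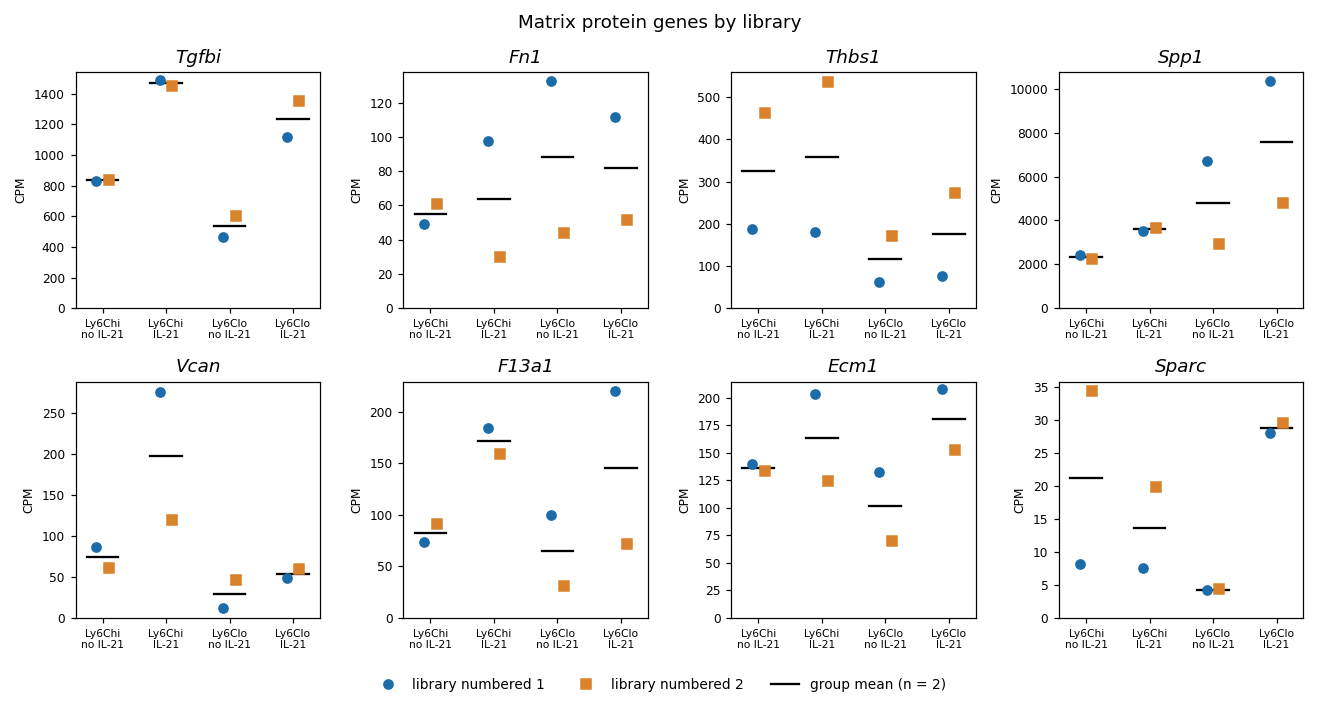
CPM of each gene (vertical axes, linear and separate for each gene) in the 4 groups, with 1 point per library, marked by its replicate number, and a line at the mean of 2 libraries. The 4 stimulated libraries lie at 1119 to 1491 CPM for Tgfbi, above the 465 to 835 CPM of the unstimulated ones, while most other genes spread widely within a group.

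Spp1 (ENSMUSG00000029304, chromosome 5, 104435118 to 104441050, plus strand) encodes osteopontin, a phosphorylated matricellular protein and cytokine that infarct macrophages are known to make in quantity. Levels in Ly6Chi cells were 2427 and 2235 CPM without IL-21 and 3539 and 3679 CPM with it. In Ly6Clo cells they were 6689 and 2928 CPM without and 10369 and 4806 CPM with IL-21. The Ly6Chi groups were apart, whereas the Ly6Clo groups overlapped, because library 1 was more than double library 2 in both cultures. Compared between libraries of the same number, the log2 ratio of stimulated to unstimulated was 0.54 and 0.72 in Ly6Chi and 0.63 and 0.71 in Ly6Clo. The averaged log2 fold change of 0.64 (SE 0.31) did not pass the edgeR test (adjusted p = 0.996).

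Fn1 and Thbs1 did not pass the test for an effect of IL-21. Fn1 (ENSMUSG00000026193, chromosome 1, 71585520 to 71653200, minus strand) encodes fibronectin, the adhesive glycoprotein on which migrating cells and new collagen assemble. Fn1 stood at 49.2 and 61.0 CPM in Ly6Chi without IL-21, 97.9 and 29.8 CPM with it, 133 and 43.9 CPM in Ly6Clo without and 112 and 51.8 CPM with it. Each stimulated group overlapped its control, and the averaged log2 fold change was 0.11 (SE 0.47, edgeR adjusted p = 0.99966). Thbs1 (ENSMUSG00000040152, chromosome 2, 118111876 to 118127133, plus strand) encodes thrombospondin 1, which inhibits angiogenesis and activates latent TGF-beta. Thbs1 stood at 189 and 461 CPM in Ly6Chi without IL-21, 181 and 536 CPM with it, 62.3 and 171 CPM in Ly6Clo without and 75.9 and 274 CPM with it. In each of the 4 groups library 2 was the higher one by more than 2-fold, a wider gap than that between cultures, and the averaged log2 fold change with IL-21 was 0.33 (SE 0.65, edgeR adjusted p = 0.99966).

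Vcan, F13a1 and Ecm1 had estimates above 0 with IL-21 in both subsets, and none passed the test. Vcan (ENSMUSG00000021614, chromosome 13, 89655312 to 89742509, minus strand) encodes versican, a large chondroitin sulfate proteoglycan of the provisional matrix that binds hyaluronan. Vcan rested on 3 to 73 counts per library, at 86.1 and 61.0 CPM in Ly6Chi without IL-21, 275 and 119 CPM with it, 12.5 and 46.1 CPM in Ly6Clo without and 48.0 and 59.1 CPM with it. Stimulated libraries lay above their controls in both subsets, and the averaged log2 fold change was 1.08 (SE 0.36, edgeR adjusted p = 0.70). F13a1 (ENSMUSG00000039109, chromosome 13, 36867178 to 37050244, minus strand) encodes the A subunit of factor XIII, the transglutaminase that crosslinks fibrin and fibronectin. F13a1 stood at 73.8 and 91.5 CPM in Ly6Chi without IL-21 and 184 and 159 CPM with it, and at 99.7 and 30.7 CPM in Ly6Clo without and 220 and 71.5 CPM with it. The Ly6Chi groups were apart and the Ly6Clo groups overlapped, at an averaged log2 fold change of 1.14 (SE 0.44, edgeR adjusted p = 0.833). Only with the replicate number as a term or with no low-count filter was F13a1 called (edgeR adjusted p = 0.0438 with the term, beside 60 of all 5256 genes). Ecm1 (ENSMUSG00000028108, chromosome 3, 95734147 to 95739569, minus strand) encodes extracellular matrix protein 1, a secreted glycoprotein. Ecm1 stood at 139 and 133 CPM in Ly6Chi without IL-21 and 203 and 124 CPM with it, and at 133 and 70.2 CPM in Ly6Clo without and 208 and 153 CPM with it. Only the Ly6Clo groups were apart, and the averaged log2 fold change was 0.58 (SE 0.24, edgeR adjusted p = 0.833).

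**Figure D2:**
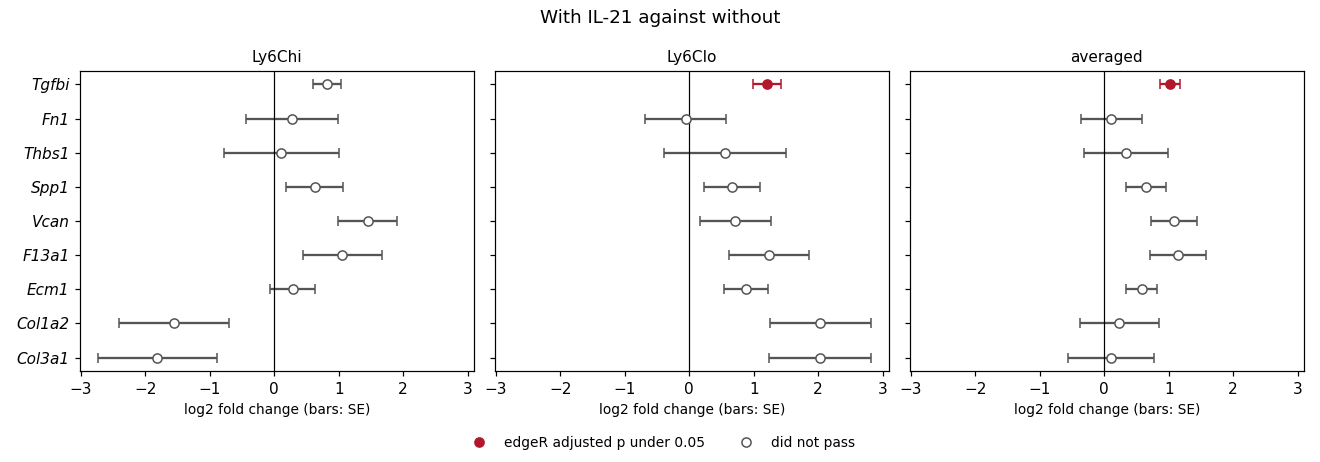
Log2 fold change with IL-21 against no IL-21 (horizontal axes, bars are standard errors) for the 9 tested genes in Ly6Chi, in Ly6Clo and averaged. Filled points mark an edgeR adjusted p under 0.05, reached by Tgfbi averaged (1.01) and in Ly6Clo (1.21), and Col1a2 and Col3a1 lie on opposite sides of 0 in the 2 subsets.

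Within single subsets, 0 of the 9 genes were called by edgeR in Ly6Chi, where 0.019% of all tested genes were called, and DESeq2 and limma-voom also called 0. At an unadjusted p under 0.05 the number in Ly6Chi was 2 by each of edgeR, DESeq2 and limma-voom, beside 185, 44 and 147 of all 5256 genes. In Ly6Clo 1 of 9 was called, beside 0.133% of all tested genes. Stimulated libraries lay above both controls for 4 of 9 genes in Ly6Chi (Tgfbi, Spp1, Vcan and F13a1), beside 15.9% of all tested genes. In Ly6Clo this held for 5 of 9 (Tgfbi, Vcan, Ecm1, Col1a2 and Col3a1), beside 15% of all tested genes. The 2 collagens among these 5 passed the low-count filter through 2 libraries each, so their place in the count is partly fixed by the filter.

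The collagens and Sparc were counted far less deeply, with 1 to 21 counts per library. Col1a2 (ENSMUSG00000029661, chromosome 6, 4504814 to 4541544, plus strand) encodes a chain of type I collagen, the main load-bearing fibre of scar. Col1a2 stood at 24.6 and 53.4 CPM in Ly6Chi without IL-21, 3.77 and 24.8 CPM with it, 4.15 and 13.2 CPM in Ly6Clo without and 28.0 and 51.8 CPM with it. Col3a1 (ENSMUSG00000026043, chromosome 1, 45311538 to 45349706, plus strand) encodes type III collagen, a thinner fibre that is laid down early in repair. Col3a1 stood at 20.5 and 42.0 CPM in Ly6Chi without IL-21, 3.77 and 14.9 CPM with it, 12.5 and 6.58 CPM in Ly6Clo without and 40.0 and 34.5 CPM with it. Sparc (ENSMUSG00000018593, chromosome 11, 55394500 to 55423183, minus strand) encodes osteonectin, a collagen-binding matricellular protein. Sparc stood at 8.20 and 34.3 CPM in Ly6Chi without IL-21, 7.53 and 19.9 CPM with it, 4.15 and 4.39 CPM in Ly6Clo without and 28.0 and 29.6 CPM with it. In Ly6Clo all 3 genes were higher in both stimulated libraries. In Ly6Chi Col3a1 was lower in both stimulated libraries, as were 15.6% of all tested genes, and the groups overlapped for Col1a2 and Sparc. Each collagen passed the low-count filter through 1 unstimulated Ly6Chi and 1 stimulated Ly6Clo library, so its direction in both subsets is partly fixed by the filter.

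The counts pooled over each group show how little the collagen values rest on. In Ly6Clo, Col1a2 had 28 counts with IL-21 against 7 without, a ratio of 4.25 after scaling (exact 95% interval 1.81 to 11.5). Col3a1 had 24 against 6 counts in Ly6Clo, a ratio of 4.25 (1.69 to 12.7), and Sparc 19 against 3, a ratio of 6.72 (1.98 to 35.5). In Ly6Chi the ratios were 0.325 (0.107 to 0.839) for Col1a2, from 6 against 20 counts, and 0.271 (0.0659 to 0.840) for Col3a1, from 4 against 16. The Sparc ratio in Ly6Chi was 0.591 (0.180 to 1.74), from 6 against 11 counts. These intervals compare libraries and leave out the spread between replicates. Tested with that spread, neither collagen passed in either subset. The log2 fold changes in Ly6Clo were 2.03 for Col1a2 (SE 0.78) and 2.02 for Col3a1 (SE 0.79), both at an edgeR adjusted p of 0.99993. Those in Ly6Chi were -1.56 for Col1a2 (SE 0.85) and -1.81 for Col3a1 (SE 0.92), at an edgeR adjusted p of 0.99997. The filter partly fixes these estimates too.

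The subsets' IL-21 effects on both collagens pointed in opposite directions, and the difference itself did not pass the test. Ly6Clo minus Ly6Chi, it was 3.84 on the log2 scale for Col3a1 (SE 1.21) and 3.59 for Col1a2 (SE 1.16). Each collagen passed the low-count filter through 1 unstimulated Ly6Chi library and 1 stimulated Ly6Clo library. The height of those groups makes this difference, so its direction and size are partly fixed by the filter. Neither passed over 5256 genes (edgeR adjusted p = 0.99998), and 0% of all tested genes were called in this comparison. Among the 9 genes the number at an unadjusted p under 0.05 was 2 (both collagens) by each of edgeR, limma-voom and DESeq2, beside 92, 88 and 13 of all 5256 genes, and each called 0. The filter kept both collagens through those groups, so this count is partly fixed too and lends the difference no support.

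Markers of other heart cells are given beside the collagens. The 15 fibroblast markers other than Col1a1 summed in library order to 8.20 and 42.0 CPM in Ly6Chi without IL-21, 11.3 and 39.7 with it, 8.30 and 15.4 in Ly6Clo without and 40.0 and 29.6 with it. These sums rest on 2 to 12 counts per library. In Ly6Clo both stimulated libraries were thus higher in fibroblast markers, as they were in the collagens, whereas in Ly6Chi the 2 cultures overlapped. Col1a1, the partner chain of Col1a2, stood at 20.5 and 34.3 CPM in Ly6Chi without IL-21, 7.53 and 14.9 CPM with it, 4.15 and 4.39 CPM in Ly6Clo without and 16.0 and 32.0 CPM with it. As for Col1a2 and Col3a1, its group mean was lower with IL-21 in Ly6Chi and higher in Ly6Clo, on 1 to 13 counts per library. Cardiomyocyte markers summed to 4.10 and 76.3 CPM in Ly6Chi without IL-21, 0 to 24.8 CPM with it, 8.30 to 11.0 CPM in Ly6Clo without and 24.6 to 140 CPM with it. In a bulk sample, fewer cells of a type and less RNA per cell cannot be told apart. The part of fibroblast or cardiomyocyte RNA in the collagen and Sparc values was not tested. With both libraries highest in cardiomyocyte markers left out, which leaves 1 library in 2 of the groups, the Col1a2 difference of IL-21 effects was 3.25 (SE 1.66), the lone libraries being assumed to vary like the other groups. The low-count filter then asked for only 1 library. Col1a2 passed it through stimulated Ly6Clo library 2 (21 counts), whose height makes this difference, so its direction and size are partly fixed by the filter. Col3a1 then no longer passed the low-count filter.

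**Figure D3:**
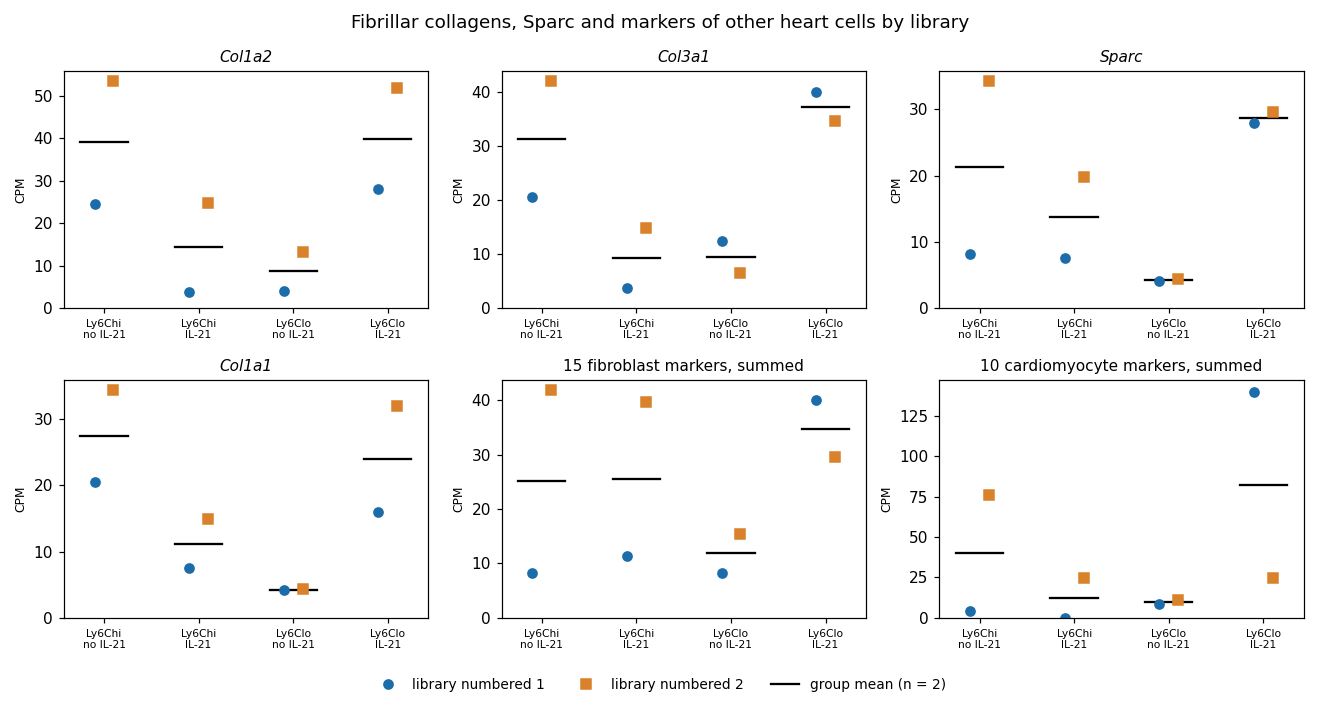
CPM by library (vertical axes, linear, starting at 0) of Col1a2, Col3a1, Sparc and Col1a1, and summed CPM of 15 fibroblast and 10 cardiomyocyte markers, with points marked by replicate number and lines at the mean of 2 libraries. Ly6Clo with IL-21 exceeds Ly6Clo without it in all 6 panels, and the cardiomyocyte sum reaches 140 CPM in 1 of its libraries.

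A correlation of log2 CPM over the 8 libraries was 0.855 between Col1a2 and Col3a1, which share libraries, depth and groups, and is given as a description only. By the same measure the genes most like Col3a1, of 4847 candidates, were Tmem160 (0.920), Sdc3 (0.916), Atp5c1 (0.912), Rnf44 (0.908) and Zc3h12d (0.874). For Tgfbi they were, of 4846 candidates, Gm17066 (0.985), Socs3 (0.963), Efcab14 (0.957), Arih2 (0.951) and Cd38 (0.947). Both lists were picked as the highest values among all candidates over only 8 libraries, so they too are a description only. Socs3 encodes a feedback inhibitor of cytokine receptor signalling and Cd38 an enzyme that breaks down NAD.

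Between the subsets, 0 of the 9 genes were called by edgeR when averaged over both cultures, beside 0.19% of all tested genes, and 3 had an unadjusted p under 0.05, as had 409 of all 5256 genes. DESeq2 and limma-voom also called 0, with 3 and 4 at an unadjusted p under 0.05, beside 159 and 423 of all genes. Vcan had the smallest p, with a log2 difference, Ly6Clo minus Ly6Chi, of -1.51 (SE 0.36, edgeR adjusted p = 0.193). All 4 Ly6Clo libraries, at 12.5 to 59.1 CPM, lay below all 4 Ly6Chi libraries, at 61.0 to 275 CPM, for Vcan alone of the 9 genes, as they did for 2.74% of all tested genes. Spp1 pointed the other way, at 1.06 (SE 0.31, edgeR adjusted p = 0.456), with an overlap of 1 Ly6Clo library (2928 CPM) with the stimulated Ly6Chi libraries. Neutrophils also enter the infarct. Their 9 marker genes summed to 1400 to 2338 CPM in Ly6Chi and 641 to 1262 CPM in Ly6Clo, nearly all from Mmp8. Mmp8 stood at 1285 to 2154 CPM in Ly6Chi and 538 to 1196 CPM in Ly6Clo. The subsets overlapped for S100a8 (74.5 to 139 and 45.7 to 104 CPM) and Csf3r (20.5 to 39.7 and 20.8 to 32.0 CPM). Retnlg, Ngp and Ltf were at 0 in every library, and S100a9, Cxcr2 and Camp had 0 to 2 counts per library. The part of neutrophil RNA in the Vcan and Spp1 differences was not tested. Left without library 2 of unstimulated Ly6Clo, which leaves 1 library in that group, Vcan was at -2.20 and Spp1 at 1.29. Of the 8 fits leaving out 1 library, only this fit is given here, and the rest called none of the genes. The main fit, given next, held all libraries. Tgfbi was at -0.44 (SE 0.15, edgeR adjusted p = 0.478) and Thbs1 at -1.17 (SE 0.65, edgeR adjusted p = 0.731). The remaining estimates lay between -0.40 and 0.39, for F13a1 and Fn1. With the replicate number as a term in the model, 3 genes (Tgfbi, Thbs1 and Vcan) were called, beside 132 of all 5256 genes.

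Without IL-21, 0 of 9 genes were called by edgeR, beside 0.0381% of all tested genes, with 4 at an unadjusted p under 0.05, beside 238 of all 5256 genes. DESeq2 and limma-voom also called 0 here, with 3 and 2 at an unadjusted p under 0.05, beside 69 and 215 of all genes. Both Ly6Clo libraries lay below both Ly6Chi libraries for 6 of 9 (Tgfbi, Thbs1, Vcan, Ecm1, Col1a2 and Col3a1), beside 17% of all tested genes, and above them for Spp1, beside 16.9%. With IL-21, again 0 of 9 were called by edgeR, beside 0.019% of all tested genes, with 3 at an unadjusted p under 0.05, beside 277 of all 5256 genes. DESeq2 and limma-voom called 0, with 2 each at an unadjusted p under 0.05, beside 75 and 257 of all genes. Ly6Clo was then lower without overlap for Tgfbi and Vcan (16.7% of all tested genes) and higher for Spp1, Col1a2 and Col3a1 (16.2%). In both cultures the place of the 2 collagens in these counts is partly fixed by the filter, which they passed through libraries where they were high. The Spp1 difference hardly moved between cultures, at 1.04 (SE 0.44) without and 1.07 (SE 0.44) with IL-21. Tgfbi lay at -0.64 (SE 0.22) without and -0.25 (SE 0.21) with IL-21. The collagens changed sides, Col1a2 from -1.95 (SE 0.82) to 1.64 (SE 0.82) and Col3a1 from -1.80 (SE 0.84) to 2.04 (SE 0.87), none past the threshold. With the replicate number as a term, Thbs1 was called without IL-21, beside 31 of all 5256 genes. Thbs1 and Vcan were then called with IL-21, beside 41.

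**Figure D4:**
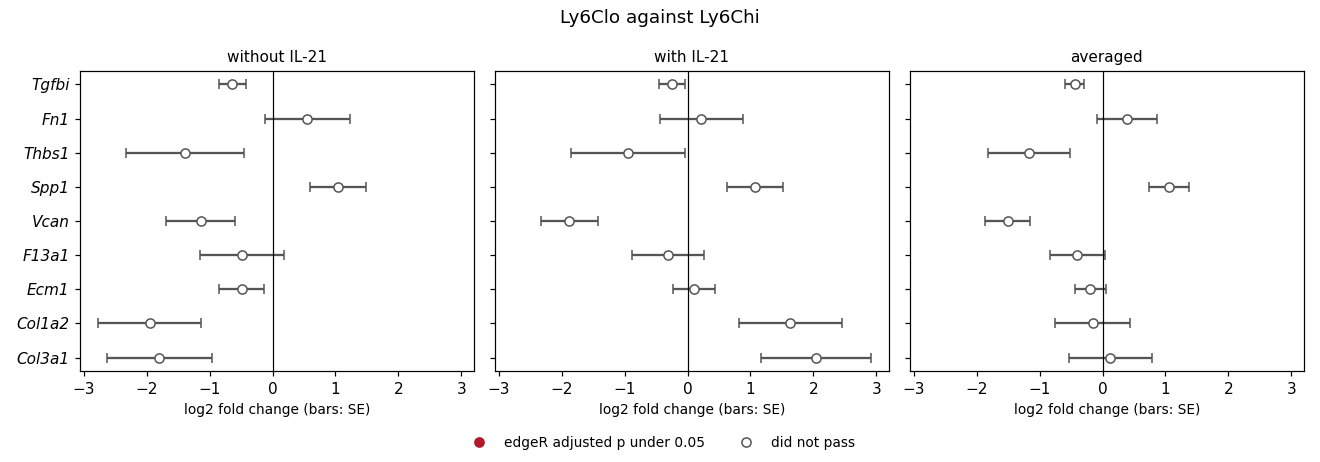
Log2 difference Ly6Clo minus Ly6Chi (horizontal axes, bars are standard errors) for the 9 tested genes in each culture and averaged, all open because none reached an edgeR adjusted p under 0.05. Vcan (-1.51 averaged) and Spp1 (1.06 averaged) keep their side in each panel, and Col1a2 and Col3a1 change sides.

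Other genes of matrix assembly were mostly below the filter, and none of those tested passed for IL-21. Of 15 other collagens, 12 had a count and 0 could be tested. Of 35 other glycoproteins and proteoglycans 3 were tested: Emilin2, an elastin-associated glycoprotein, at an averaged log2 fold change of 0.39 (SE 0.18), Lamc1, a laminin chain of basement membranes, at 0.72 (SE 0.38), and Srgn, a granule proteoglycan, at 0.08 (SE 0.48). For Lamc1 all 4 stimulated libraries (34.5 to 45.2 CPM) exceeded all 4 unstimulated ones (20.5 to 33.2 CPM), as in the 2.19% given above. None of the 3 passed.

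Enzymes of collagen maturation and crosslinking were detected more often, with 8 of 18 tested, 6 above 0 with IL-21 and 0 called by edgeR (median log2 fold change 0.20). Those with the smallest p were Plod3, a lysyl hydroxylase, at 0.38 (SE 0.24), the lysyl oxidase Loxl3 at 0.39 (SE 0.32) and the prolyl hydroxylase subunit P4ha1 at 0.29 (SE 0.24). Of 19 matrix receptors 15 were tested, 7 were above 0 and 0 were called (median -0.03). They included Sdc4, a heparan sulfate proteoglycan that binds fibronectin, at 0.80 (SE 0.26), the collagen receptor Lair1 at -0.38 (SE 0.19) and Mrc1, a lectin that takes up collagen fragments, at 0.96 (SE 0.51). Of 18 genes of the TGF-beta pathway 9 were tested, 6 were above 0 and 0 were called (median 0.07). The 2 receptor chains pointed in opposite directions, Tgfbr1 at -0.66 (SE 0.25, 44.4 to 90.4 CPM with IL-21 and 98.8 to 145 CPM without) and Tgfbr2 at 0.56 (SE 0.26, 75.3 to 128 CPM with and 45.8 to 73.8 CPM without). For each chain the 4 stimulated and 4 unstimulated libraries did not overlap, as for 1.52% of all tested genes in the lower and 2.19% in the higher direction, and neither passed the edgeR test (adjusted p = 0.794 and 0.932). Tgif1, a repressor of SMAD-driven transcription, stood at -0.27 (SE 0.29). Of the members of these 5 lists, 0 were called in any of the 7 comparisons.

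Platelets also carry the products of Thbs1, Sparc and F13a1, so platelet genes were read beside them. Of 10 platelet markers, 6 that define platelets (Itga2b, Gp9, Gp1ba, Gp1bb, Gp5 and Tubb1) were at 0 in every library, while Treml1 had 0 to 3 counts and Gp6 had 0 to 1 per library. The list nevertheless summed to 1714 to 2006 CPM without IL-21 and to 2903 to 3758 CPM with it. Nearly all came from Pf4, a chemokine gene that macrophages also express, at 1674 to 1934 CPM without and 2752 to 3550 CPM with IL-21. The stimulated libraries lay above all unstimulated ones, as for 2.19% of all tested genes. Pf4 did not pass the averaged edgeR test (log2 fold change 0.77, SE 0.15, adjusted p = 0.0704). Ppbp, a second platelet chemokine gene, rose with IL-21 (averaged log2 fold change 1.88, SE 0.27, edgeR adjusted p = 0.00822), from 20.8 to 68.6 CPM without to 108 to 209 CPM with it. Kdr, an endothelial receptor gene, had 14 to 91 counts per library, while 4 of the 10 endothelial markers (Tek, Tie1, Emcn and Cldn5) were at 0 and the other 5 (Vwf, Egfl7, Pecam1, Cdh5 and Esam) had 0 to 2 counts per library. The 7 lymphocyte markers had 0 to 1 count in all per library.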

How the data were processed

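The authors deposited 1 table of expected counts per library, that is, estimated counts per Ensembl gene, and per the file headers these are raw values. Between 53.3 and 59.7% of the values above 0 were not whole, at a tolerance of 0.001. The kit was QuantSeq 3′ with molecular identifiers, sequenced from a single end, per the labels' protocols. The submitters' processing notes name the build mm10 and DESeq2 without versions. Which aligner, annotation release and counting program were used, and whether identifiers and strand were, is not given in the sources used here. Reads of overlapping genes could therefore not be told apart, and genes annotated over the 10 had at most 17 counts each over all libraries.

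Of 53342 identifiers 53237 matched the GENCODE M21 annotation of GRCm38. The planned test assumed whole counts, so values were first rounded. Genes were kept by filterByExpr (minimum count 10, minimum total 15, which is about 36.2 CPM in 2 libraries) and TMM scaling was applied. One edgeR model (version 4.0.16, with limma 3.58.1 under R 4.3.3) held 4 group means and left 4 residual degrees of freedom. Its 7 contrasts were examined by the robust quasi-likelihood F test over 5256 genes, and calls were made at a Benjamini-Hochberg adjusted p under 0.05. CPM use TMM-scaled totals of kept genes. The fit was also run on simulated counts with known changes, the same dispersion for every gene and no difference by replicate number. Such a run does not test the fit at the spread of these libraries. Groups come from sample titles.

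All 10 genes are reported in every library. From each of the 5 lists of matrix, matrix receptor and TGF-beta genes, called members and up to 3 tested members with the smallest p in the averaged IL-21 effect are named. Of the cell type marker lists only some members are named. The 5 genes most like Tgfbi and Col3a1 were ranked by Pearson's r of log2 CPM (prior count 2), among genes averaging 10 counts or more. Marker genes named for being at 0 or at few counts, Mmp8, S100a8, Csf3r and Col1a1 were chosen after their values were seen. Members and lists were chosen with earlier results of these data known. Alternatives were DESeq2 1.42.0, limma-voom, another scaling, other filters, unrounded values, fewer groups, a replicate block and libraries left out.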

Additional observations from a re-analysis of the deposited data

How the results depend on the processing

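Of 811 recomputed values of single genes, 748 kept their direction and side of the threshold, 31 changed direction, 16 lost and 16 gained a call. Averaged IL-21 effect: 2 genes (Tgfbi and F13a1) were called with no low-count filter (35 of all 17757 genes) and with the replicate block (60 of 5256, against 9 without it; F13a1 adjusted p = 0.0438), and 0 without both libraries highest in cardiomyocyte markers, a setting added after seeing the data (Tgfbi adjusted p = 0.130 by edgeR). Leaving out 1 library gave 0 to 1. In Ly6Chi the replicate block called 1 (Tgfbi, log2 fold change 0.82, edgeR adjusted p = 0.00715), beside 14 of all genes. In Ly6Clo 0 were called by limma-voom, with a mean count of at least 20 (7 genes tested), with unrounded values, in a fit of only the groups compared, without both libraries, and in each of the 8 fits leaving out 1 library. Between the subsets on average, 2 (Vcan and Spp1) were called with no filter (58 of all genes), 3 (Tgfbi, Thbs1 and Vcan) with the block (132 of all genes, against 10 without it) and 0 to 2 leaving out 1 library (22 of 5815 genes in the fit that called 2). Without IL-21 the subsets differed in 1 gene with no filter (Spp1; 16 of all genes) and in 1 with the block (Thbs1; 31), and with IL-21 in 2 with no filter (Vcan and Spp1; 22 of all genes) and in 2 with the block (Thbs1 and Vcan; 41). The labels state no pairing and each group holds only 2 numbers, so values without the block were kept as the reported ones. Deviations of same-numbered libraries correlated at 0.234 to 0.412 in all 6 pairs of groups, a hint from the data that the number marks something shared, and the calls gained with the block rest on that reading.

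Signs also changed. Without both libraries, Fn1 was -0.10 in the averaged IL-21 effect and Col1a2 0.31 between the subsets on average. With limma-voom Fn1 was 0.069 in Ly6Clo. Leaving out 1 library at a time gave these ranges of the log2 fold change. Averaged IL-21 effect: Fn1 -0.46 to 0.55, Thbs1 -0.29 to 0.83, Col1a2 -0.61 to 0.82, Col3a1 -0.46 to 0.49. In Ly6Chi: Fn1 -0.87 to 0.82, Thbs1 -0.85 to 0.90, Ecm1 -0.13 to 0.57. In Ly6Clo: Fn1 -0.75 to 0.83, Thbs1 -0.69 to 1.56, Spp1 -0.00033 to 1.38. Between subsets on average: Fn1 -0.049 to 0.96, Col1a2 -0.74 to 0.67, Col3a1 -0.25 to 0.68, Ecm1 -0.42 to 0.027. With IL-21: Thbs1 -2.20 to 0.0095. Tgfbi stayed between 0.93 and 1.12 in the averaged effect under all settings, at an edgeR, DESeq2 or limma-voom adjusted p of 4.89e-07 to 0.130. The library highest in fibroblast markers was Ly6Chi without IL-21, library 2, so leaving it out repeats a fit already given. Collagen and Sparc levels of 1 to 21 counts limit their precision.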

Other observations

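Thbs1 and Fn1 differed between libraries by replicate number. Tested in edgeR with the 4 groups as terms, libraries numbered 2 had more Thbs1 than those numbered 1 (log2 fold change 1.52, SE 0.16, adjusted p = 3.06e-07), with the same direction in 4 of 4 groups. Fn1 was lower in libraries numbered 2 (log2 fold change -1.08, SE 0.27, edgeR adjusted p = 0.0140), in 3 of 4 groups. The other 7 tested members did not pass, with Tgfbi at 0.15 (SE 0.11), and 8.2% of all 5256 tested genes did. Kdr, counted without most other endothelial markers, was also higher in libraries numbered 2 (log2 fold change 1.34, SE 0.19, edgeR adjusted p = 2.50e-05). What the number stands for is not given in the labels, and its part in the Thbs1 and Fn1 levels was not tested further.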
